A study of Mus musculus with 24 samples.

Results

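Integrins are the adhesion receptors by which blood cells hold to matrix, to the vessel wall and to each other, and 10 of their genes that are used by leukocytes were followed here: Itgal, Itgam, Itgax, Itgb2, Itga4, Itga5, Itga6, Itgb1, Itgb7 and Itgb3. They were taken by name from the deposited count table, which lists 43629 genes, and each of the 10 was found through its Ensembl identifier. Expression was measured by RNA sequencing in a mouse acute myeloid leukaemia line that carries the MLL-AF9 fusion oncogene and expresses Cas9. Sequencing covered 24 libraries, 3 in each of 8 groups: a non-targeting guide (the control), a DOT1L knockout, and G1 and G2 of each of MLLT10, MLLT1 and MLLT6, which are read here as 2 guides per gene. DOT1L is the methyltransferase of histone H3 lysine 79, and the MLLT10 (AF10), MLLT1 (ENL) and MLLT6 (AF17) proteins are known partners of it. All groups, the control included, share the fusion, Cas9 and, by the library names, YFP (a fluorescent protein). They received lentivirus at a multiplicity (MOI) of 0.3, were held in 2 ug/ml puromycin for 72 hours from 48 hours after transduction, and were harvested on day 9. The sample titles write KO for DOT1L alone, and knockout is used here for all of the targeted populations. The labels name no clone, no age or strain of the source animal, and no second guide for DOT1L or the control. Nor do they state whether the 3 libraries of a group stem from separate cultures, and the p-values below reflect only the spread among these libraries, part of which may be technical.

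Each integrin is a pair of 1 alpha and 1 beta subunit, and a beta subunit that several alphas share limits which receptors can be built. The beta 2 subunit (Itgb2, CD18) pairs with alpha L (Itgal, CD11a) to form LFA-1, which binds ICAMs, with alpha M (Itgam, CD11b) to form Mac-1, the complement receptor of neutrophils and macrophages, and with alpha X (Itgax, CD11c). The beta 1 subunit (Itgb1, CD29) pairs with alpha 4 (Itga4, CD49d) to form VLA-4, which holds progenitors to VCAM-1 in the marrow, with alpha 5 (Itga5) to form a fibronectin receptor and with alpha 6 (Itga6, CD49f) to form a laminin receptor. Alpha 4 also pairs with beta 7 (Itgb7), and that receptor binds MAdCAM-1 of gut vessels, while beta 3 (Itgb3, CD61) serves the platelet fibrinogen receptor and the vitronectin receptor.

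Library totals ranged from 2403044 to 7415397 counts, and the 10 integrin genes together took between 0.0745% and 0.12% of them. The targeted gene was checked first in every library. Dot1l mRNA ranged from 41.6 to 49.1 CPM (TMM-normalised counts per 10 to the power of 6 counts of the tested genes) in the DOT1L knockout and from 69.7 to 75.1 CPM in the control, and it fell by 0.71 in log2 units (SE 0.13, edgeR adjusted p = 0.00019). Mllt10 differed by -0.76 (adjusted p = 0.139), Mllt6 by -0.90 (adjusted p = 0.496) and Mllt1 by 0.61 in the direction against its label (adjusted p = 0.148), each in its own knockout. Small Cas9 deletions need not lower an mRNA, so these values do not check loss of the protein. Across the series 2 libraries had the lowest mean correlation with the others of their own group, MLLT1 guide 1 replicate 1 at 0.948 and MLLT6 guide 1 replicate 3 at 0.954. Of 10 marker lists, the one for the leukaemia's own myeloid identity had counts for 8 of 8 genes in every condition (in the DOT1L knockout Spi1 and Mpo rose and Hoxa9, Meis1 and Cd34 fell), while Cd3e, Cd4, Cd8a, Trbc1 and Trbc2 of T cells and Cd79a, Ms4a1 and Pax5 of B cells were at 0 in all 24 libraries.

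Itgam, Itgax and Itgal lie on the same chromosome, and Itgam and Itgax are neighbours. In mm10, Itgal (ENSMUSG00000030830) spans chromosome 7 from 127296260 to 127335138, Itgam (ENSMUSG00000030786) from 128062640 to 128118491 and Itgax (ENSMUSG00000030789) from 128129547 to 128150657, all on the plus strand. Itgam overlaps a gene model on the same strand, Gm49368, that the count table does not list, so reads of both cannot be told apart. RefSeq gives a promoter window of 250 bases before to 50 after the start site (GRCm38.p6) for 6 of the 10 genes, and the windows of the neighbours Itgam and Itgax and of Itgb7 are shown because these genes had the widest rise, the lowest level and the widest fall described next. Capitals mark GAGGAA, a purine-rich ETS core as bound by PU.1, or its reverse complement, in Itgam and Itgb7, and TGTGGT, a Runx core, in Itgax.
Itgam, chr7:128062390-128062689, plus strand: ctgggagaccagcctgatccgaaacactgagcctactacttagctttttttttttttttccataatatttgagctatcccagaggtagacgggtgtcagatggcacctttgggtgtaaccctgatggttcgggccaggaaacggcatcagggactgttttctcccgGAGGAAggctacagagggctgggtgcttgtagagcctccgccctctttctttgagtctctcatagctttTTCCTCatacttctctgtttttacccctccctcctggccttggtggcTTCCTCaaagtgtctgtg
Itgax, chr7:128129300-128129599, plus strand: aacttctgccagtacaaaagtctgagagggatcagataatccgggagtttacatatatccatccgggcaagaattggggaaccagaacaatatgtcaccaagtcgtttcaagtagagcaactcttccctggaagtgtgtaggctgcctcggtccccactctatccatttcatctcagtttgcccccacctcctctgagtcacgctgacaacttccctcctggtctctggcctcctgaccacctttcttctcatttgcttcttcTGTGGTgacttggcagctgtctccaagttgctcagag
Itgb7, chr15:102231886-102232185, minus strand: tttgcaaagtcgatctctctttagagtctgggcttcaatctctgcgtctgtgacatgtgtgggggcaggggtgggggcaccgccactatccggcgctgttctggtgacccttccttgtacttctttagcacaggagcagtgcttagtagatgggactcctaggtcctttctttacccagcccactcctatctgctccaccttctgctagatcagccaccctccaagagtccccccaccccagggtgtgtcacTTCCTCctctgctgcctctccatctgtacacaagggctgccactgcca
The Itgam window holds GAGGAA in 3 places on the 2 strands, whose leftmost bases stand at -84, -15 and 33 (1 is the first transcribed base), the Itgb7 window holds it once at 3, and the Itgax window holds it nowhere. GAGGAA stands in 28.1% of all 32544 RefSeq windows of that length, also once each in those of Itgb1 and Itga5, and TGTGGT in 16.7%, also once in that of Itga4. Of the other motifs searched on both strands, TTGCNNAA (a C/EBP type, in 10.8% of windows) and TGACAG (a Meis core, in 19.1%) stood in none of the 6. No matches overlap. They describe letters and do not show binding.

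The question of the first comparison was which integrin mRNAs differ once DOT1L itself is targeted. Of the 9 genes that passed edgeR's filter on low counts, 3 rose (Itgam, Itgb2 and Itgb3) and 3 fell (Itga6, Itgb1 and Itgb7) at an adjusted p under 0.05. Over all 10578 genes tested, 11.2% were called higher and 10.7% lower. The median size of the log2 fold change, without its sign, was 1.06 over the 9 genes and 0.37 over all genes tested. Itgax did not pass the filter and has no test. In these bulk libraries fewer cells of a type and less RNA per cell cannot be told apart.

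Itgam rose most, from 11.5, 10.6 and 22.9 CPM in the 3 control libraries to 100.3, 120.5 and 137 CPM in the 3 DOT1L knockout libraries. Every DOT1L library stood above every control library, by at least the spread within either group. On the log2 scale Itgam rose by 2.996 ± 0.33 (SE), which is 7.98-fold (edgeR adjusted p = 3.2e-07). Per kilobase of exon, which allows genes to be compared, the level of Itgam went from 2.99 ± 1.37 to 23.8 ± 3.68 CPM per kb (mean ± SD, n = 3 each).

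Its partner Itgb2 (ENSMUSG00000000290, chromosome 10, 77530252 to 77565708) stood at 136, 219.9 and 217 CPM across the control libraries, against 334, 453 and 408 CPM across the DOT1L libraries. The groups did not overlap, and Itgb2 rose by 1.06 ± 0.26 on the log2 scale (adjusted p = 0.0036). Itgal, the other main partner of Itgb2, was measured at 124, 127 and 119 CPM across the control libraries, against 166, 198 and 144 CPM across the DOT1L libraries. These groups did not overlap either, but the difference of 0.45 ± 0.17 missed the threshold (adjusted p = 0.068), and it passed without DOT1L replicate 3 (adjusted p = 0.0496). Itgax had 6 counts over the 3 control libraries and 13 over the 3 DOT1L libraries, with levels from 0.313 to 1.17 and from 0.891 to 1.86 CPM. At this depth no difference of Itgax was detectable.

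Within the beta 2 family the alpha messages shifted against each other. The ratio of Itgam to Itgal per kilobase was 0.122, 0.109 and 0.251 in the control libraries and 0.792, 0.797 and 1.25 in the DOT1L libraries, so the alpha M message went from well under that of alpha L to about its level. An exact permutation test of this ratio gave p = 0.1, the smallest for 3 libraries against 3 (adjusted p = 0.178). The summed alpha L, alpha M and alpha X message per unit of Itgb2 message was 0.367 ± 0.0976 in the control and 0.384 ± 0.028 in the DOT1L knockout (SD, n = 3 each). That sum lay between 0.299 and 0.479 in the control and between 0.366 and 0.416 in the DOT1L knockout, inside the control's range.

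Neutrophil markers, most of them granule genes, moved with Itgam and Itgb2. Of 10 such genes, among them the calprotectin subunits S100a8 and S100a9 and lactoferrin (Ltf), 10 rose in the DOT1L knockout, and their summed level, 285 to 392 CPM in the control libraries, lay between 92160 and 106000 CPM there. S100a8 and S100a9 had means of 38750 and 34800 CPM in that knockout. Only Retnlg of this list was at 0 in the control. Of 8 markers of monocytes and macrophages, 6 were tested, of which Csf1r and Fcgr1 rose and Adgre1 and Ccr2 fell, with summed levels of 4071 to 6380 CPM in the control and 3361 to 4201 CPM in the DOT1L knockout, Mrc1 being at 0 in both. The part of these cells or states in the integrin changes was not tested. Within the identity list Spi1, which encodes PU.1, rose by 1.38 on the log2 scale (adjusted p = 9.77e-05).

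**Figure D1:**
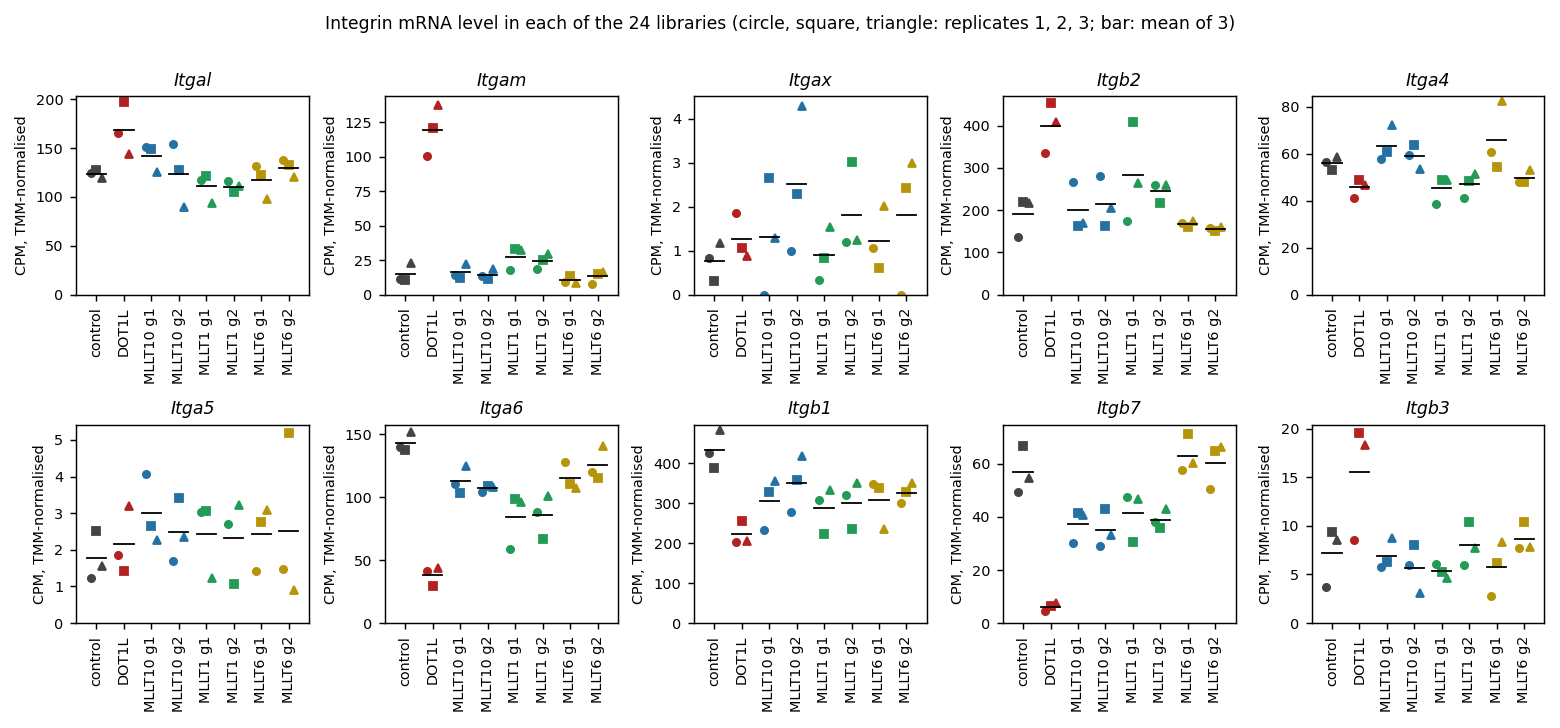
Level of each of the 10 integrin genes (y axis, TMM-normalised CPM, from 0, with a scale of its own in each panel) in the 24 libraries by group (x axis; g1 and g2 are the guides); symbols are replicates 1 to 3 and bars are means of 3. The DOT1L libraries stand apart upward for Itgam, from 100.3 to 137 CPM, and downward for Itga6 and Itgb7.

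Itga6, Itgb1 and Itgb7 were called in the other direction. Itga6 (ENSMUSG00000027111, chromosome 2, 71745616 to 71858416), the laminin receptor subunit, stood at 140.1, 138 and 152 CPM across the control libraries, against 41.6, 29.9 and 43.7 CPM across the DOT1L libraries. No library of one group reached the range of the other, and Itga6 fell by 1.89 on the log2 scale (SE 0.19, adjusted p = 9.6e-08). Itgb1 (ENSMUSG00000025809, chromosome 8, 128685654 to 128733200), the beta subunit shared by VLA-4 and the laminin and fibronectin receptors, stood at 427, 389 and 482.5 CPM across the control libraries, against 203, 257 and 206 CPM across the DOT1L libraries. It fell by 0.96 on the log2 scale (SE 0.20, adjusted p = 0.00116), again with no overlap.

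Itga4 and Itga5, the other alpha partners of Itgb1, did not pass the test. Itga4 (ENSMUSG00000027009, chromosome 2, 79255426 to 79333123) was measured at 56.5, 53.2 and 58.7 CPM across the control libraries, against 41.2, 49.1 and 46.9 CPM across the DOT1L libraries, with a log2 difference of -0.29 ± 0.16 (adjusted p = 0.226). It overlaps Cerkl on the opposite strand, which had 126 counts over all 24 libraries against 5632 for Itga4. Itga5 (ENSMUSG00000000555, chromosome 15, 103344286 to 103366763) was close to the floor of detection, with 15 counts in the control and 27 in the DOT1L knockout, and its difference of 0.33 ± 0.64 (adjusted p = 0.775) sets no useful bound.

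Itgb7 (ENSMUSG00000001281, chromosome 15, 102215995 to 102231944) had the widest fall of the 9 tested genes. It stood at 49.5, 66.9 and 54.8 CPM across the control libraries, against 4.46, 6.40 and 7.66 CPM across the DOT1L libraries, and every DOT1L library was far under every control library. It fell by 3.16 on the log2 scale (SE 0.24, adjusted p = 1.11e-09), which is 8.96-fold. The message for beta 7 per unit of beta 1 went from 0.197 ± 0.0488 to 0.0413 ± 0.0119 (per kilobase, SD, n = 3 each, exact permutation p = 0.1, adjusted p = 0.178).

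Markers named for other blood cell types, some of which are known to use Itgb7, had the following levels in these leukaemia libraries. Of 6 mast cell and basophil markers, 4 were tested, and Cpa3, Mcpt8 and Gata2 fell in the DOT1L knockout. Ms4a2 went the other way without a call, from a mean of 6.14 to 9.22 CPM (log2 difference 0.55, adjusted p = 0.436). Fcer1a and Prss34 were at 0 in all libraries, and the summed level went from 119 to 152 CPM in the control to between 32.8 and 47.2 CPM in the DOT1L knockout. Of 7 dendritic cell markers, the 2 tested (Flt3 and Irf8) fell, with a summed level of 173 to 264 CPM in the control and 34.1 to 58.3 CPM in the DOT1L knockout, and Xcr1 was at 0 throughout. Of 8 T cell markers, Lck alone was tested and it fell, and of 5 NK cell markers Nkg7 alone was tested and it rose, with Ncr1 and Gzma at 0 in every library. Of 5 erythroid markers, Hbb-bt alone was tested and it fell, and no B cell marker could be tested. The part of such cells or states in the fall of Itgb7, Itga6 and Itgb1 was not tested.

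Itgb3 (ENSMUSG00000020689, chromosome 11, 104608000 to 104670476) is at the edge of the threshold. It stood at 3.71, 9.38 and 8.55 CPM across the control libraries, against 8.55, 19.6 and 18.4 CPM across the DOT1L libraries, so DOT1L replicate 1 lies inside the control's range. The log2 fold change was 1.09 ± 0.39 with an adjusted p of 0.04998. That call was lost without control replicate 1 (0.78, adjusted p = 0.198), 2 (1.32, adjusted p = 0.0578) or 3 (1.21, adjusted p = 0.0772) and without DOT1L replicate 2 (0.91, adjusted p = 0.167) or 3 (0.95, adjusted p = 0.17). Itga2b, the platelet partner of beta 3, fell from 7.01 ± 5.8 to 1.39 ± 0.415 CPM (SD, n = 3 each, adjusted p = 0.0385), while Pf4 and Gp9 rose among the 3 tested of 8 megakaryocyte and platelet markers. The summed level of these 8 was 8.55 to 18.96 CPM in the control and 18.8 to 24.6 CPM in the DOT1L knockout, with Gp6 at 0 throughout, and their part in the level of Itgb3 was not tested.

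**Figure D2:**
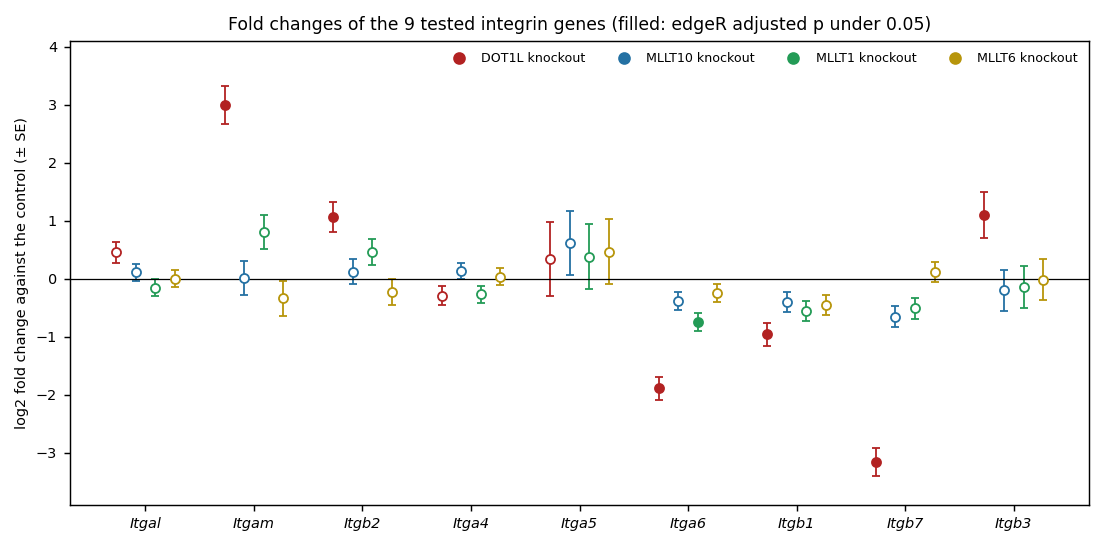
Log2 fold change against the control (y axis, ± SE) of the 9 tested integrin genes (x axis) in the 4 knockouts (colours); filled points have an edgeR adjusted p under 0.05. Itgam reaches 2.996 and Itgb7 -3.16 in the DOT1L knockout, and Itga6 in the MLLT1 knockout is the single filled point of the other knockouts.

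The balance of the beta 2 and beta 1 messages was compared within each library. Per kilobase, the ratio of Itgb2 to Itgb1 was 0.426, 0.756 and 0.6002 in the control libraries and 2.2, 2.36 and 2.65 in the DOT1L libraries. An exact permutation test of 3 libraries against 3 cannot go below a two-sided p of 0.1, which it gave here (adjusted p = 0.178 over the 16 ratio comparisons made). The ratio of Itga6 to Itga4 went from 3.84, 4.02 and 4 to 1.56, 0.943 and 1.44, with the same p. The levels of the 10 genes summed to between 950.1 and 1118 CPM in the control and to between 903 and 1135 CPM in the DOT1L knockout.

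**Figure D3:**
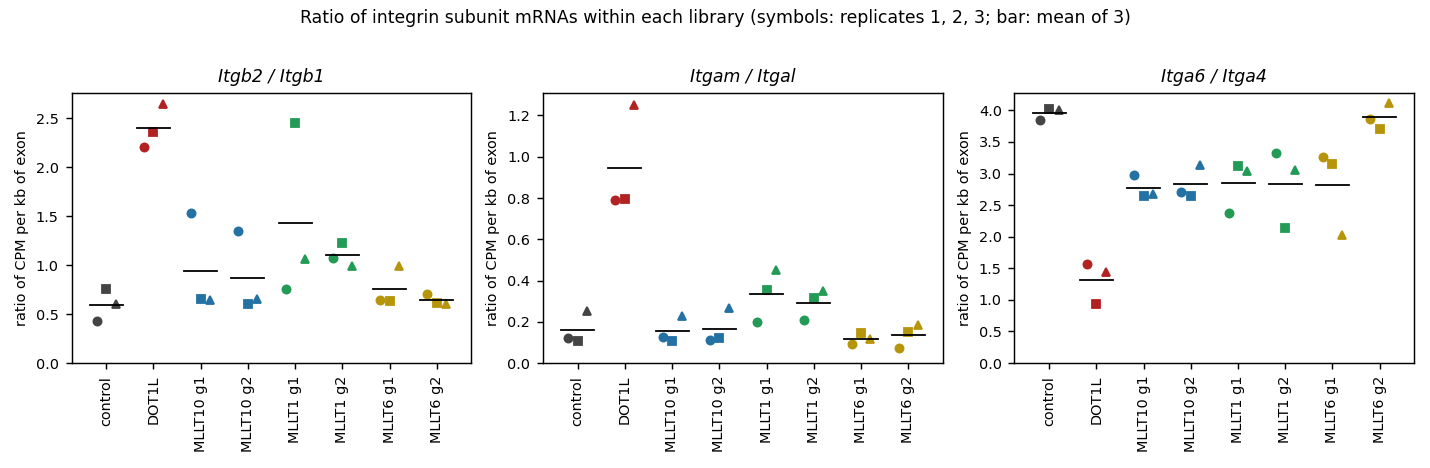
Ratio of 2 integrin messages within each library (y axis, ratio of CPM per kb of exon, from 0) by group (x axis) for Itgb2 over Itgb1, Itgam over Itgal and Itga6 over Itga4; symbols are replicates 1 to 3 and bars are means of 3. The DOT1L libraries lie above every control library in the first pair of panels and below in the third, and MLLT1 guide 1 replicate 2 reaches 2.46 for Itgb2 over Itgb1.

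The MLLT1 (ENL) knockout asked the same question of a reader subunit that is known to bind acylated histones. It called 1 integrin gene, Itga6, as lower and 0 as higher, against 1.61% lower and 0.974% higher of all genes tested. DESeq2 also called 0 higher, and 5 of 9 had an unadjusted p under 0.05 with edgeR, as had 1631 of all 10578 genes. The calls over all genes moved when 1 control library was left out: from 103 higher and 170 lower they went to 177 and 255 without control replicate 1, 27 and 56 without replicate 2, and 25 and 49 without replicate 3. The median size of the log2 fold change was 0.46 over the 9 genes and 0.22 over all genes.

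Itga6 stood at 59.2, 98.5 and 96.1 CPM under MLLT1 guide 1, against 88.5, 66.9 and 101.4 CPM under guide 2. All 6 libraries lay under the lowest control library at 138 CPM, and Itga6 fell by 0.75 on the log2 scale (SE 0.16, edgeR adjusted p = 0.0086). Each guide alone gave that call, with -0.75 ± 0.18 for guide 1 (adjusted p = 0.0445) and -0.75 ± 0.18 for guide 2 (adjusted p = 0.0435), where 1.25% and 1.22% of all genes were called in either direction. The pooled call was lost without control replicate 3 (adjusted p = 0.0746). The call of guide 1 alone was lost without control replicate 2 or 3 or any of its own 3 libraries (adjusted p from 0.0574 to 0.21), and that of guide 2 without any control library or its own replicate 1 or 2 (adjusted p from 0.0526 to 0.236). Guide 1 replicate 1 is among the libraries that stood apart, and without them guide 1 gave -0.56 (adjusted p = 0.157).

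Itgam was the largest positive value in this knockout and did not pass. It stood at 17.8, 32.8 and 32.3 CPM under guide 1, against 18.7, 25.4 and 29.7 CPM under guide 2, and its lowest libraries lay inside the control's range of 10.6 to 22.9 CPM. The log2 difference was 0.81 ± 0.29 (adjusted p = 0.16), and a block on replicate number made it a call (0.83, adjusted p = 0.0437). Both guides gave a positive value, 0.90 ± 0.33 and 0.72 ± 0.33. The neutrophil markers moved here too: 8 of 10 rose, and their summed level was 1808 to 2335 CPM.

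Among the other genes, Itgb2 ranged from 175 to 409 CPM with a median of 259.5 (difference 0.46 ± 0.22, adjusted p = 0.323). Itgb1 ranged from 222 to 349.8 CPM with a median of 315 (difference -0.56 ± 0.17, adjusted p = 0.0933). Itgb7 ranged from 30.7 to 47.4 CPM, all under the lowest control library at 49.5 CPM, with a difference of -0.51 ± 0.18 (adjusted p = 0.14). Itgal, Itga4, Itga5 and Itgb3 differed by -0.16, -0.27, 0.37 and -0.15 on the log2 scale with adjusted p-values of at least 0.359. The ratio of Itgb2 to Itgb1 was higher than in the control in all 6 MLLT1 libraries, from 0.7605 to 2.46 (exact permutation p = 0.0238, the smallest for 6 libraries against 3, adjusted p = 0.127). The lowest of these stood just above the highest control library at 0.7563. The highest was in guide 1 replicate 2, with 6879158 counts, where the largest control library had 3127008. Itgb1 was lower in deeper libraries, as described below, and the part of depth in this ratio was not tested. The permutation test pooled the libraries of both guides as 1 group. A single guide against the control, 3 libraries against 3, cannot go below a p of 0.1 with it.

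The MLLT10 (AF10) knockout called 0 integrin genes in either direction, where 0.236% of all genes were called higher and the same share, 0.236%, lower. Both its guides met the check for pairing with the control that is described under processing, at correlations from 0.107 to 0.348. Differently numbered libraries were not compared, so the check does not establish pairing. With a block on replicate number, 38 genes were called higher and 41 lower in place of 25 and 25, and still 0 integrin genes. Without control replicate 2 the calls over all genes were 8 higher and 7 lower, and without replicate 3 they were 9 and 6. Calls lower also went to between 13 and 16 without MLLT10 guide 1 replicate 1 or any 1 library of guide 2. At an unadjusted p under 0.05 there were 3 of 9, namely Itgb7, Itga6 and Itgb1, and 1013 of all 10578 genes, and DESeq2 called Itgb7 as lower (adjusted p = 0.0488). Itgb7 stood at 30.2, 41.5 and 40.8 CPM under guide 1, against 29, 42.98 and 33.2 CPM under guide 2, all under the control's lowest value of 49.5 CPM. The edgeR difference was -0.66 ± 0.18 (adjusted p = 0.114).

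Itga6 ranged from 104 to 125 CPM with a median of 108.5, also under every control library, with a log2 difference of -0.38 ± 0.16 (adjusted p = 0.4). The ratio of Itga6 to Itga4 per kilobase lay between 2.64 and 3.13 in the 6 MLLT10 libraries and between 3.84 and 4.02 in the control (exact permutation p = 0.0238, both guides pooled, adjusted p = 0.127). It was not particular to MLLT10: in the MLLT1 libraries the ratio lay between 2.14 and 3.32, with the same p and adjusted p. Itgam differed by 0.005 ± 0.29 (adjusted p = 0.9997), with levels from 11.7 to 22.03 CPM. Itgb2, Itgal, Itga4, Itga5 and Itgb3 differed by 0.12, 0.11, 0.13, 0.61 and -0.20, with adjusted p-values of at least 0.776. In this knockout 4 of the 10 neutrophil markers rose, to a summed level of 744 to 1078 CPM, and in the MLLT6 knockout 0 did.

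The MLLT6 (AF17) knockout called 0 integrin genes, and 0% of all genes were called higher and 0% lower. DESeq2 also called 0 of the 9, and at an unadjusted p under 0.05 there were 727 genes in all and 1 of the 9 integrin genes, Itgb1. Itgb1 ranged from 237 to 351 CPM with a median of 333, under the control's lowest library at 389 CPM, with a difference of -0.45 ± 0.17 (adjusted p = 0.699). Itgam (-0.34), Itgb2 (-0.23), Itga6 (-0.25), Itgb7 (0.11), Itga5 (0.47) and the 3 others, within 0.04 of 0, had adjusted p-values of at least 0.721.

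Guides of the same gene did not separate in the integrin genes by the test made. Guide 1 against guide 2 called 0 of 9 genes for each of MLLT10, MLLT1 and MLLT6 with edgeR, and 0 with DESeq2. With edgeR 0 of all 10578 genes were called in each of these comparisons, so the result is not particular to the integrin genes. At an unadjusted p under 0.05 there was 1, Itga4 in MLLT6 (0.41 ± 0.16, adjusted p = 0.467), where 983 of all 10578 genes were under it. Against the control, the single guides of MLLT10 and of MLLT6 called 0 integrin genes, with 2, 2, 1 and 0 at an unadjusted p under 0.05 for MLLT10 guides 1 and 2 and MLLT6 guides 1 and 2. Of all genes 700, 998, 1389 and 286 were under it in the same order. At the adjusted threshold MLLT10 guide 1 called 12 of all genes higher and 6 lower, guide 2 called 22 higher and 10 lower, and each MLLT6 guide called 0.

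Knockouts were then compared with each other, so that the order of the levels could be tested. MLLT10 against DOT1L called 7 of the 9 genes, where 23.5% of all genes were called. Itgb7 (2.51 ± 0.22), Itga6 (1.51 ± 0.17), Itgb1 (0.56 ± 0.18) and Itga4 (0.42 ± 0.14) were higher in the MLLT10 knockout, and Itgam (-2.99 ± 0.25), Itgb3 (-1.29 ± 0.32) and Itgb2 (-0.94 ± 0.21) lower. The calls of Itgb1 (adjusted p = 0.0249) and Itga4 (adjusted p = 0.0355) were not firm: without DOT1L replicate 1 they gave 0.0981 and 0.142, and without DOT1L replicate 3 0.118 and 0.0949. Without MLLT10 guide 1 replicate 3 they gave 0.0503 and 0.0735, without MLLT10 guide 2 replicate 3 Itgb1 gave 0.0507, and Itga4 was also lost without DOT1L replicate 2 (0.0628) or MLLT10 guide 2 replicate 1 (0.0544) or 2 (0.0727). Itgal gave -0.34 ± 0.15 (adjusted p = 0.0991) and passed with a block on replicate number (adjusted p = 0.0279) or without MLLT10 guide 2 replicate 1 (adjusted p = 0.0332).

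MLLT1 against DOT1L called 5, where 19.6% of all genes were called. Itgb7 (2.65 ± 0.23) and Itga6 (1.14 ± 0.17) were higher in the MLLT1 knockout, and Itgam (-2.19 ± 0.25), Itgb3 (-1.24 ± 0.32) and Itgal (-0.61 ± 0.15) lower. The call of Itgal was lost without DOT1L replicate 2 (adjusted p = 0.0564), and that of Itgb3 without DOT1L replicate 2 (0.056) or 3 (0.062). Itgb2 was just short of the threshold (-0.60 ± 0.21, adjusted p = 0.0513). It passed with no filter on low counts (adjusted p = 0.00659), with the DESeq2 test (0.0445) and with library total as a covariate (0.0335). It also passed without MLLT1 guide 1 replicate 2, whose Itgb2 level of 409 CPM is within the DOT1L range (-0.77, adjusted p = 0.00723). Itgb1 passed without replicate 2 of MLLT1 guide 1 (0.50, adjusted p = 0.0479) or of guide 2 (0.50, adjusted p = 0.0494).

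MLLT6 against DOT1L called 7, where 29.3% of all genes were called. Itgb7 (3.27 ± 0.23), Itga6 (1.64 ± 0.17) and Itgb1 (0.51 ± 0.18) were higher in the MLLT6 knockout, and Itgam (-3.34 ± 0.26), Itgb2 (-1.30 ± 0.21), Itgb3 (-1.11 ± 0.32) and Itgal (-0.45 ± 0.15) lower. Each of Itgal, Itgb1 and Itgb3 lost its call without at least 1 library. For Itgal these were DOT1L replicates 1 and 2 and replicate 3 of each MLLT6 guide (adjusted p from 0.0539 to 0.182), while leaving out the 2 outlying libraries named above gave 0.0522. For Itgb3 they were DOT1L replicates 2 and 3 (0.0753 and 0.0781). For Itgb1 they were DOT1L replicates 1 and 3, MLLT6 guide 1 replicates 1 and 2 and guide 2 replicates 2 and 3 (0.0522 to 0.133), and Itga4 passed without MLLT6 guide 1 replicate 2 (0.40, adjusted p = 0.0433).

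The partners of DOT1L also differed among themselves. MLLT6 against MLLT1 called 4 integrin genes, where 4.46% of all genes were called: Itgb7 (0.63 ± 0.15) and Itga6 (0.50 ± 0.13) were higher in the MLLT6 knockout, and Itgam (-1.15 ± 0.23, adjusted p = 0.00379) and Itgb2 (-0.70 ± 0.18) lower. Itga6 (adjusted p = 0.0266) lost its call without MLLT1 guide 2 replicate 1 or 2, MLLT6 guide 1 replicate 1 or MLLT6 guide 2 replicate 3 (0.0524 to 0.0729), and without both libraries that stood apart (0.42, adjusted p = 0.0527). Itgb2 (adjusted p = 0.0255) lost it without MLLT1 guide 1 replicate 2, MLLT1 guide 2 replicate 1 or 3, or replicate 2 of either MLLT6 guide (0.0563 to 0.105). MLLT6 against MLLT10 called Itgb7 alone (0.77 ± 0.15, adjusted p = 0.00848), where 0.766% of all genes were called.

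MLLT1 against MLLT10 called 0 of 9, where 2.68% of all genes were called, and 4 had an unadjusted p under 0.05, as had 1372 of all 10578 genes. DESeq2 called Itgam as higher (0.80, adjusted p = 0.0142) and Itga4 as lower (-0.40, adjusted p = 0.0365) in the MLLT1 knockout. With edgeR Itgam gave 0.80 ± 0.22 (adjusted p = 0.0528) and Itga4 -0.40 ± 0.11 (adjusted p = 0.0608), and a block on replicate number let both pass (0.0105 and 0.0237). Itgam passed without replicate 3 of MLLT10 guide 1 (adjusted p = 0.0311) or guide 2 (0.0469), or without replicate 1 of MLLT1 guide 1 (0.0221) or guide 2 (0.0453).

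In order of mean level, Itgam ran from the DOT1L knockout (119 CPM) through MLLT1 (26.1), MLLT10 (15.4) and the control (15.04) to MLLT6 (11.9). Only the first of these neighbours differed beyond their spread (adjusted p = 3.85e-07). Itgb7 ran the other way, from MLLT6 (61.8 CPM) through the control (57.1), MLLT1 (40.2) and MLLT10 (36.3) to DOT1L (6.17), and of its neighbours only MLLT10 and DOT1L differed (adjusted p = 9.97e-09). Itga6 ran from the control (143 CPM) through MLLT6 (120.5), MLLT10 (110.1) and MLLT1 (85.1) to DOT1L (38.4), where only the last step passed (adjusted p = 2.24e-05). For Itgb1 (432.6, 328.5, 317, 295 and 222 CPM in the control, MLLT10, MLLT6, MLLT1 and DOT1L) and for Itgal, Itga4, Itga5 and Itgb2 no step between neighbours passed the test, while for Itgb3 that from DOT1L to the control did (adjusted p = 0.04998).

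Per kilobase, the most abundant integrin message in the control was Itgb1 at 106 ± 11.6 CPM per kb, followed by Itgb2 at 62.5 ± 15.6, Itgb7 at 20.6 ± 3.23, Itgal at 18.8 ± 0.607 and Itga6 at 15.9 ± 0.815 (SD, n = 3). Itga4 at 4.01 ± 0.199, Itgam at 2.99 ± 1.37 and Itgb3 at 1.22 ± 0.519 were lower, and Itga5 and Itgax were under 0.5 CPM per kb. In the DOT1L knockout Itgb2 led at 131 ± 19.6 CPM per kb, Itgb1 followed at 54.4 ± 7.4, and Itgal and Itgam stood side by side at 25.7 ± 4.13 and 23.8 ± 3.68. Itgb7 stood at 2.23 ± 0.583 there.

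Some replicate numbers lay on 1 side of their group's mean log2 level in most groups. For Itgam, replicate 1 was under that mean in 8 of 8 groups and replicate 3 in 1 of 8. For Itgb7, replicate 1 was under it in 7 of 8. For Itgal, replicate 3 was under it in 7 of 8 and replicates 1 and 2 in 1 of 8 each. For Itgb1, the 6 groups that hold libraries both over and under 5000000 counts had the lower level in the deeper libraries each time, for example 222 against 320.1 CPM for MLLT1 guide 1 and 319 against 417.5 CPM for MLLT10 guide 2. Across all 24 libraries, the deviation of Itgb1 from its group mean went with the deviation of log2 library total at a Pearson r of -0.79, given as a description. Itgb1 had the largest r in size of the 9 tested integrin genes. Itgb3 (0.485), Itga4 (0.39) and Itgb2 (0.33) went the other way, and the remaining ones lay between -0.14 and 0.19. This r was not computed for genes other than these. Of the 8 libraries over 5000000 counts 0 were controls, 1 DOT1L, 4 MLLT10, 2 MLLT1 and 1 MLLT6. With log2 library total as a covariate, which was added after seeing the data, the difference of Itgb1 became -0.75 in the DOT1L knockout (adjusted p = 0.00136), -0.33 in MLLT1, -0.33 in MLLT6 and -0.094 in MLLT10, where it had been -0.96, -0.56, -0.45 and -0.40.

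**Figure D4:**
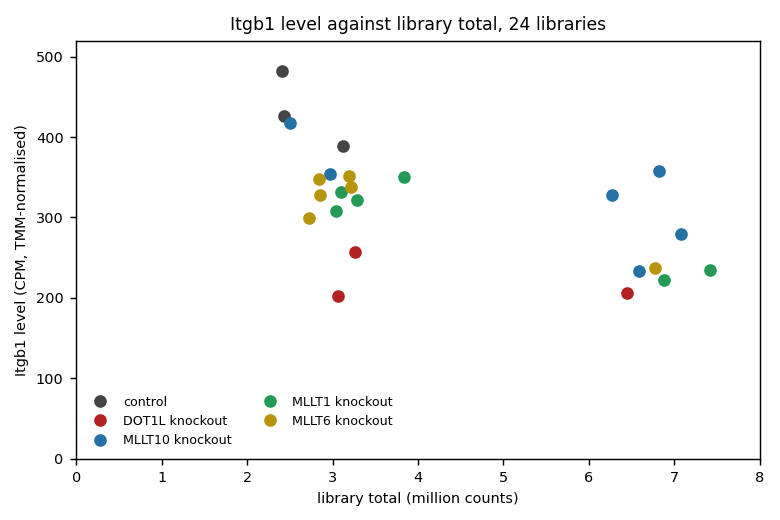
Level of Itgb1 (y axis, TMM-normalised CPM, from 0) against library total (x axis, counts in units of 10 to the power of 6) in the 24 libraries, coloured by knockout. The 3 control libraries, with at most 3127008 counts, are at the left, and the 8 libraries with at least 6272904 counts reach at most 358 CPM.

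Genes whose pattern over the 24 libraries was most like that of an integrin gene were found by the Pearson r of log2(CPM + 1), over libraries that share group, depth and a control. For Itgam these were Mgst1 (0.95), Ankrd44 (0.95) and Itgb2l (0.94), the last a beta 2-like integrin gene that went from 4.69 to 208.5 CPM in the DOT1L knockout. For Itga6 they were Flt3 (0.95), Txndc5 (0.93) and Gcnt4 (0.93), and for Itgb7 Gm1110 (0.95), Galnt6 (0.94) and Adgre1 (0.94), the gene of the F4/80 antigen. For Itgb2 they were Sh3kbp1 (0.89), Dhrs7 (0.88) and Sypl (0.88), and for Itgb1 Sec23a (0.85), Rtraf (0.84) and Heatr5b (0.82). For Itgal (Pycard, Orai1 and Adar), Itga4 (Thy1 and Isg20) and Itgb3 (Tmem86a, C130026I21Rik and Gpr157) the highest r lay between 0.75 and 0.82.

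The remaining integrin subunits were mostly silent. Of 16 other subunit genes, 4 passed the filter, and in the DOT1L knockout 3 of them fell, 0 rose, and the median log2 fold change was -1.38. In that knockout 10.7% of all genes tested were called lower and 11.2% higher. Itgb5, a partner of alpha V, fell from 28.1 ± 6.77 to 7.03 ± 3.83 CPM (adjusted p = 0.0005). Itgav itself, which also pairs with beta 3, fell from 43.4 ± 2.07 to 26.8 ± 2.64 CPM (adjusted p = 0.0211). Itga2b is described above and Itgb4 differed by -0.57 (adjusted p = 0.75). In the other 3 knockouts 0 of these 4 were called.

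Integrins are switched on from inside the cell when RAP1 brings talin and kindlin to the beta tail. Of 18 genes of this inside-out route, 14 were tested, and in the DOT1L knockout 4 rose and 1 fell, with a median log2 fold change of 0.45. Over all genes tested, 11.2% were called higher there and 10.7% lower. Rap1b, the small GTPase itself, rose from 209 ± 25.3 to 341 ± 5.61 CPM (adjusted p = 0.000157), and Sipa1, which switches RAP1 off, rose by 1.26 ± 0.20 on the log2 scale (adjusted p = 4.83e-05). Sharpin, an inhibitor of integrin activation, rose from 69.3 ± 12.7 to 118 ± 20.8 CPM (adjusted p = 0.00193), and Tln2, a talin, fell from 33.7 ± 2.18 to 16.9 ± 2.66 CPM (adjusted p = 0.000587). The fourth that rose was Rassf5, a RAP1 effector also called RAPL. None of the 14 was called in the other 3 knockouts.

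Bound integrins signal inward through adaptors and kinases and to actin. Of 26 genes of this outside-in route, 16 were tested, and in the DOT1L knockout 10 rose and 4 fell, with a median log2 fold change of 0.85 against 0.01 over all genes tested. The shares over all genes tested were 11.2% higher and 10.7% lower. Flna, the filamin that binds beta tails, rose from 91.7 ± 20.9 to 415 ± 12.8 CPM (adjusted p = 8.93e-07). Actn1, an alpha actinin, rose from 63.9 ± 0.938 to 284 ± 9.62 CPM (adjusted p = 1.71e-09), and Zyx, a focal adhesion protein, from 47.7 ± 9.48 to 166 ± 21.7 CPM (adjusted p = 3.13e-06). Lpxn, a leukocyte relative of paxillin, fell from 76.3 ± 9.86 to 18.99 ± 7.49 CPM (adjusted p = 2.47e-06).

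From that route 2 genes were also called in another knockout. Lpxn fell in the MLLT10 knockout, to 22.9 ± 5.37 CPM over 6 libraries (log2 fold change -1.74 ± 0.20, adjusted p = 7.09e-05). Flna rose in the MLLT1 knockout, to 173 ± 39.3 CPM (0.90 ± 0.22, adjusted p = 0.0273). All comparisons with the control share its 3 libraries.

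Of 23 ligand genes 6 were tested, and in the DOT1L knockout 4 rose and 1 fell. Of all genes tested, 11.2% were called higher there and 10.7% lower. C3, the complement component whose fragment Mac-1 binds, rose by 3.86 ± 0.19 on the log2 scale, from a mean of 49.5 ± 9.39 CPM to one of 722 ± 75.2 CPM (adjusted p = 6.04e-13), and it also rose in the MLLT10 (0.97 ± 0.16, adjusted p = 0.00341) and MLLT1 (1.24 ± 0.16, adjusted p = 8.86e-05) knockouts. Vcam1, the ligand of VLA-4, rose from 3.42 ± 2.89 to 26.02 ± 2.29 CPM, and Spp1, osteopontin, from 5.83 ± 2.04 to 21.4 ± 4.48 CPM. Lamc1, a laminin chain, fell from 5.98 ± 0.227 to 1.34 ± 0.793 CPM. The fourth that rose was Thbs1, thrombospondin. Of 10 lateral partners, mostly tetraspanins, all were tested. In the DOT1L knockout Cd63 rose and Cd151, which binds laminin receptors, fell, close to the shares over all genes, and 0 were called in the other knockouts.

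**Figure D5:**
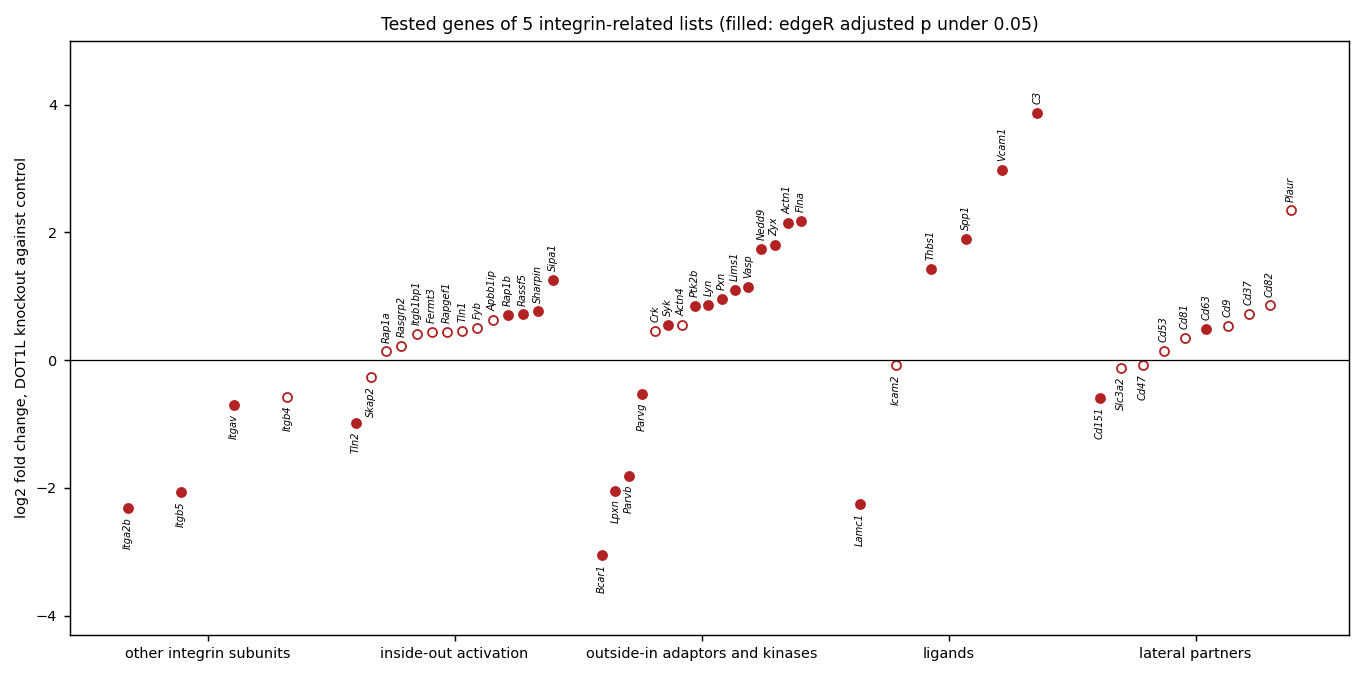
Log2 fold change in the DOT1L knockout against the control (y axis) of the tested genes of 5 lists (x axis: 4, 14, 16, 6 and 10 genes, in order of value within a list); filled points have an edgeR adjusted p under 0.05. The filled points of the adaptor list run from Bcar1 at -3.05 to Flna at 2.18.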

How the data were processed

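A single table deposited by the authors holds raw counts of reads per gene, not normalised, for 24 libraries. Per the submitters' processing notes, bcl2fastq, HISAT2, HTSeq and DESeq2 were used with mm10. These notes give no version, annotation or strandedness. Gene symbols, positions and exon lengths came from GENCODE M21 (42462 of 43629 identifiers matched). The 10 members and all lists were chosen with earlier results of these data known. Named genes were the members, per list the 4 tested genes with the smallest adjusted p in a comparison where the list had a call, and 3 genes of like pattern for each member with a mean of at least 5 CPM; other genes of the lists were named to account for a count. Some genes that these rules or lists hold are not reported here.

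Counts were tested with edgeR 4.0.16 (R 4.3.3): TMM scaling, edgeR's filter on the 8 groups (10578 genes stayed), 1 quasi-likelihood fit of all libraries, 19 comparisons, and Benjamini-Hochberg adjustment over all genes tested. Both guides of a gene were averaged. A gene was called at an adjusted p under 0.05. Standard errors were taken as the size of the log2 fold change divided by the root of edgeR's F statistic. CPM (counts per 10 to the power of 6) were scaled to the effective library size of the tested genes. The fit was tested on simulated data. Same-numbered libraries were checked for pairing by the correlation over genes of their deviations from group means. It exceeded 0.1 for all 3 numbers between the control and both MLLT10 guides, and in 8 of 28 pairs of groups in all, but not between the control and DOT1L. Alternatives were no filter, DESeq2 1.42.0 size factors, the DESeq2 test, a replicate block, the compared groups alone and each library left out. Leaving out both libraries that stood apart, log2 library total as a covariate and the repeats for guide and knockout comparisons were added after seeing the data. Summaries used Python 3.11.15 with pandas 2.3.3, permutation tests scipy 1.17.1, and plots matplotlib 3.10.9.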

Additional observations from a re-analysis of the deposited data

Results flagged for a closer look

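In 2 cases, with both guides of a gene as 1 group of 6 libraries, the highest library stood apart from the other 5 by more of the range than Dixon's 95% limit of 0.625 allows. Itga4 in the MLLT6 knockout was at 82.3 CPM in guide 1 replicate 3, against 48.2 to 60.8 CPM in the other 5. That library is also among those named in the report for the lowest mean correlation with their own group. Itga6 in the MLLT10 knockout was at 125 CPM in guide 1 replicate 3, against 104 to 111 CPM in the other 5. Chance flags about 1 in 20 groups, and 30 were looked at.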

How the results depend on the processing

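Of 545 alternative values of the 36 integrin log2 fold changes against the control, 500 kept direction and side of the threshold, 10 lost the call, 6 gained it and 29 changed sign. The calls of Itgam, Itgb2, Itga6, Itgb1 and Itgb7 in the DOT1L knockout held in every alternative. Itgb3 there lost its call with DESeq2 size factors (adjusted p = 0.0516), the compared groups alone (0.0806) and library total as a covariate (0.138), and Itgal gained one with the replicate block (0.0202). The cause of these and the following changes was not tested.

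The count of integrin genes called lower in the MLLT10 knockout became 1 with the DESeq2 test. In the MLLT1 knockout the count called higher became 1 (Itgam) without the filter (adjusted p = 0.0351) and 1 with the replicate block, and the count called lower became 2 without the filter, adding Itgb1 (0.0389), and 0 in the compared groups alone (Itga6, 0.096). For MLLT1 guide 1 the count called higher became 1 without the filter (Itgam, 0.0497), and the count called lower 0 without the libraries that stood apart, 0 with library total as a covariate (0.0964) and 0 in the groups alone (0.324). For guide 2 the count called lower became 0 with that covariate (0.109) and 0 in the groups alone (0.189). MLLT1 against MLLT10 gave 1 higher (Itgam) without the filter, 1 with the block, 1 without the libraries that stood apart and 1 with DESeq2, and 1 lower (Itga4) with the block and 1 with DESeq2. MLLT6 against MLLT1 gave 1 higher in place of 2 without the libraries that stood apart and 1 in the groups alone. Within other comparisons, Itga4 in MLLT10 against DOT1L lost its call without the filter (0.133) and with the covariate (0.0526), Itgal in MLLT6 against DOT1L lost it without the filter (0.0621), Itga6 in MLLT6 against MLLT1 lost it in the groups alone (0.0924), and Itgb1 in MLLT1 against DOT1L gained one with the covariate (0.0259).

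All sign changes were of uncalled values. In the MLLT10 knockout these were Itgam with DESeq2 size factors (-0.00074) and Itgb2 with library total as a covariate (-0.07). In the MLLT6 knockout they were Itgal without the filter (0.0043) and without the libraries that stood apart (0.057), Itga4 without those libraries (-0.068) and with the covariate (-0.012), and Itgb3 with the replicate block (0.0048).

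Leaving out each library in turn moved Itga5 in the DOT1L knockout from -0.14 to 0.68. In the MLLT10 knockout Itgam ranged from -0.21 to 0.44, Itgb2 from -0.078 to 0.23 and Itgb3 from -0.50 to 0.038, and in the MLLT1 knockout Itgb3 from -0.45 to 0.089. In the MLLT6 knockout Itgam ranged from -0.56 to 0.10, Itgal from -0.049 to 0.058, Itga4 from -0.067 to 0.091, Itga5 from -0.074 to 0.82 and Itgb3 from -0.32 to 0.22. Counts called lower ranged from 0 to 1 for the MLLT1 knockout and for each of its guides. MLLT10 against DOT1L gave 2 to 4 higher, MLLT1 against DOT1L 1 to 4 lower and 2 to 3 higher, MLLT6 against DOT1L 2 to 4 lower and 2 to 3 higher, MLLT1 against MLLT10 0 to 1 higher, and MLLT6 against MLLT1 1 to 2 in either direction.

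Over all genes, calls higher and lower moved by over 1.5 times without the filter (MLLT10 122 and 70, MLLT1 201 and 262, MLLT6 53 and 27), with the DESeq2 test (MLLT10 48 and 57), in the compared groups alone (MLLT10 17 and 11, MLLT1 36 and 61), with library total as a covariate (MLLT10 15 and 6, MLLT1 64 and 96) and with the replicate block (MLLT1 184 and 273, where guide 1 did not meet the pairing check with the control). Leaving out 1 library also moved these counts by over 1.5 times, with the values given in the report for MLLT10 and MLLT1. In DOT1L, whose numbers did not meet the pairing check with the control either, the block gave 1397 and 1289. Depth limits Itgax, Itga5 and Itgb3 most, with 153, 255 and 813 counts over all 24 libraries.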
